A study of Caenorhabditis elegans with 12 samples.

Results

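The 6 genes for predicted short-chain dehydrogenases of Caenorhabditis elegans are described here: R05D8.7, dhs-14 (R05D8.8), R05D8.9, F25D1.5, dhs-23 (R08H2.1) and dhs-8 (K10H10.3). They are 6 of 27928 genes in the count table, found by sequence name in the WBcel235 annotation. They were picked because their transcripts were higher on vitamin D in these libraries, so the difference between the treatments is given for them as a description, with no test. Each of 12 libraries came from RNA of a pool of intact N2 worms, the standard wild-type laboratory strain, with 6 pools on vitamin D and 6 on the vehicle, dimethyl sulfoxide (DMSO). The series text gives 44 h of treatment from the fourth larval stage, 100 µM vitamin D and 50 worms in a pool, whereas the sample labels give a start at 1 day of age, 100 mM and 40 worms, and a growth temperature of 20 °C. That the pools are independent samples rests on the series text.

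Short-chain dehydrogenases are enzymes that use the cofactors NAD(H) or NADP(H) to oxidise alcohols or to reduce ketones and aldehydes. Members of the family act in animals on steroids, retinoids, fatty acids and foreign carbonyl compounds, and in worms dhs-16 acts in the synthesis of the hormone dafachronic acid while dhs-28 shortens fatty acid side chains of pheromones in the peroxisome. Vitamin D is a secosteroid with a hydroxyl group. No substrate is named for the 6 genes in the annotation used here.

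The libraries held 31383203 to 38720736 counts on vitamin D and 30203731 to 35230983 on vehicle, and 13460 genes passed the filter on low counts, the 6 genes among them. Vehicle libraries 2 and 3 stood apart. Their summed CPM (counts per 1e+06 counts of the library, scaled with TMM factors) over 33 sperm marker genes, 3 of them at 0 in all libraries, was 642 and 506, against 3750 to 5320 in the other 4 vehicle libraries and 1410 to 3460 in the vitamin D libraries. Vitamin D library 5 had the most sperm transcript of its group (3460 CPM) and the most oocyte transcript (1130 CPM over 5 markers, against 292 to 333 CPM in the others). Summed intestinal markers overlapped between the groups, with 6020 to 8590 CPM on vitamin D and 5690 to 8180 CPM on vehicle over 9 genes, of which 0 were past the threshold in either direction. Body wall muscle (3 markers), hypodermis (3) and neuron (4) sums also overlapped, with 1 marker past the threshold, unc-54 (muscle myosin; log2 fold change 0.24, SE 0.05, edgeR adjusted p = 0.0326). In RNA from whole worms, more cells of a type and more RNA per cell cannot be told apart.

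Transcripts of all 6 genes were higher on vitamin D, in each of them without overlap between the 6 vitamin D and the 6 vehicle libraries. The fold ran from 1.82 for dhs-14 to 27.7 for R05D8.7. All 6 were past an adjusted p of 0.05 in edgeR's fit over all genes, where 1.75% of tested genes were past it in that direction. The groups lay apart in that direction for 1.98% of tested genes, in the other for 1.92% and in either for 3.90%. Both counts follow from how the genes were chosen. Of all 13460 tested genes 492 (3.66%) were past the threshold, 236 higher and 256 lower, and 16.7% had an unadjusted p under 0.05. Scaled by library totals alone, the split was 507 higher and 223 lower. With vehicle libraries 2 and 3 left out, 3924 genes were past it.

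**Figure D1:**
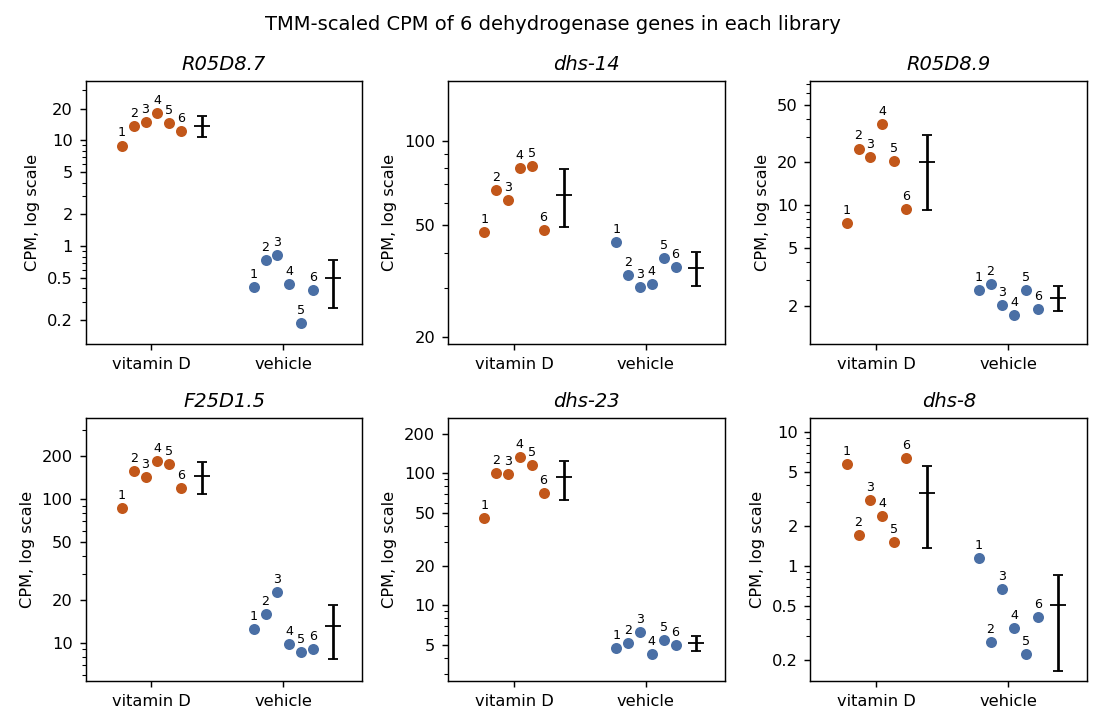
TMM-scaled CPM (log axis) of the 6 genes in the 6 vitamin D and 6 vehicle libraries; points are libraries with their replicate numbers, and bars give mean and SD. The groups are separate for each gene, and vitamin D libraries 1 and 6 are lowest for 5 genes but highest for dhs-8.

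R05D8.7, dhs-14 and R05D8.9 lie side by side on chromosome V, on the minus strand, together with a further dehydrogenase gene, dhs-15 (R05D8.10). R05D8.7 spans 2761819 to 2763208, dhs-14 spans 2763981 to 2765200, R05D8.9 spans 2766232 to 2767565 and dhs-15 spans 2768361 to 2769854. The gaps between them are 772, 1031 and 795 bp. The RefSeq table names R05D8.7 dhsl-4 and R05D8.9 cror-2.

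R05D8.7 was nearly silent on vehicle. It had 8.95 CPM at the lowest, 14.3 at the median and 18.2 at the highest on vitamin D, against 0.19, 0.423 and 0.824 CPM on vehicle. The vehicle values rest on 6 to 27 counts a library, so that the denominator of its fold is imprecise. The mean was 13.8 ± 3.08 CPM on vitamin D and 0.499 ± 0.239 CPM on vehicle (SD, n = 6 each), and the lowest vitamin D library was 10.9 times the highest vehicle library. Its log2 fold change of 4.78 (SE 0.32) ranked 1 among the 13460 tested genes.

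R05D8.9 had 7.48, 20.9 and 36.6 CPM (lowest, median, highest) on vitamin D, against 1.72, 2.29 and 2.82 CPM on vehicle. Vitamin D libraries 1 and 6, with 7.48 and 9.41 CPM, were low beside the other vitamin D libraries, which had 20.2 to 36.6 CPM. The log2 fold change was 3.14 (SE 0.37), and the coefficient of variation was 53.3% on vitamin D and 19.6% on vehicle.

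The gene between them, dhs-14, had the highest level of the cluster on both treatments and the smallest fold of the 6 genes. It had 47.4, 64.3 and 81.7 CPM (lowest, median, highest) on vitamin D, against 30.2, 34.5 and 43.5 CPM on vehicle. The lowest vitamin D library exceeded the highest vehicle library by a factor of 1.09 only. The log2 fold change was 0.86 (SE 0.15). The neighbour dhs-15, which is outside the set of 6, had a similar fold: 2.53 ± 0.442 CPM on vitamin D and 1.35 ± 0.632 CPM on vehicle (SD, n = 6 each; log2 fold change 0.90, SE 0.33, edgeR adjusted p = 0.165). Its groups overlapped, with 1.80 to 3.12 CPM on vitamin D and 0.355 to 2.04 CPM on vehicle.

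How many 50-base reads could match more than 1 of these 3 neighbouring genes of a single family was not analysed here, so the separate levels are uncertain. Their summed level does not depend on how counted reads were split, although reads dropped, counted repeatedly or shared with dhs-15 could change it. It was 98.1 ± 27.3 CPM on vitamin D and 38.1 ± 5.09 CPM on vehicle (SD, n = 6 each), a 2.58-fold difference, with 63.8 to 135 CPM in vitamin D libraries and 33.0 to 46.5 CPM in vehicle libraries. The make-up of that sum differed as well. R05D8.7 supplied 12.6% to 17.6% of the 3 genes' counts on vitamin D and 0.465% to 2.50% on vehicle, and dhs-14 supplied 59.3% to 74.3% on vitamin D and 90.4% to 94.0% on vehicle. R05D8.9 supplied 11.7% to 27.1% on vitamin D and 5.03% to 7.62% on vehicle. Counts of R05D8.7 were 18.1% to 25.5% of those of dhs-14 on vitamin D, whereas they were 0.499% to 2.73% of them on vehicle.

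**Figure D2:**
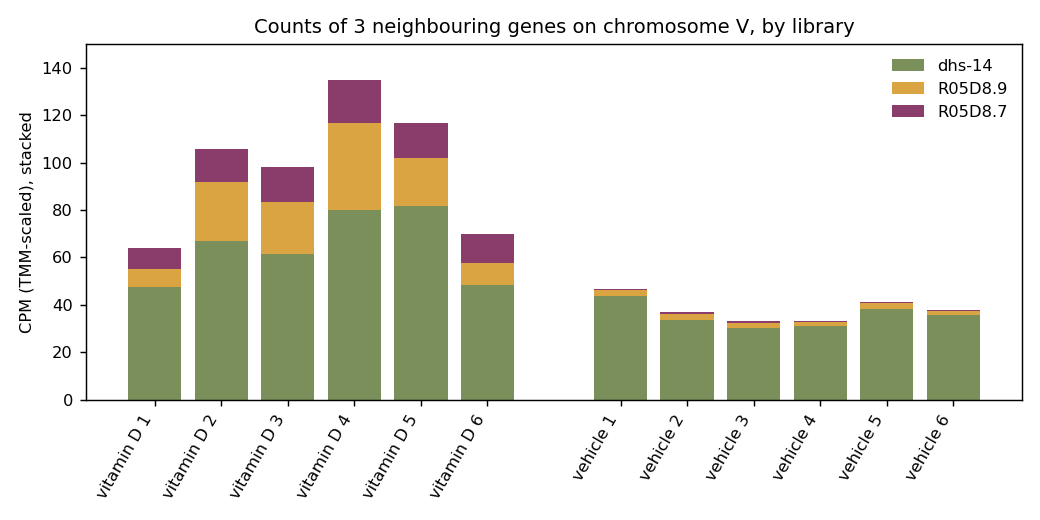
Stacked TMM-scaled CPM of dhs-14, R05D8.9 and R05D8.7 in each vitamin D and vehicle library. The total is 63.8 to 135 CPM on vitamin D and 33.0 to 46.5 CPM on vehicle, where dhs-14 makes up 90.4% or more of the counts.

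F25D1.5 (chromosome V, 10545741 to 10546783, minus strand) had the largest absolute difference of the 6, 131 CPM between the group means. It had 86.9, 150 and 184 CPM (lowest, median, highest) on vitamin D, against 8.7, 11.2 and 22.5 CPM on vehicle. The log2 fold change was 3.47 (SE 0.28). On vehicle its 2 highest values, 15.9 and 22.5 CPM, were in libraries 2 and 3, the ones with little sperm transcript. Summed markers of intestine (8170 and 8180 CPM, against 5690 to 6840 in the other 4) and hypodermis (1590 and 1480 CPM, against 782 to 1140) were also highest there. R05D8.7 was also highest in these libraries (0.747 and 0.824 CPM, against 0.190 to 0.437 CPM in the other 4), and the part of sperm, intestine or hypodermis content in this was not tested. Without them the log2 fold change was 3.86 for F25D1.5 (SE 0.24) and 5.27 for R05D8.7 (SE 0.27). The gene degt-1 (F25D1.4) on the opposite strand overlaps F25D1.5 from 10545741 to 10545756. In all, degt-1 held 750 counts over the vitamin D libraries and 725 over the vehicle libraries. By library it held 98 to 175 on vitamin D, where F25D1.5 held 3184 to 7074. On vehicle it held 87 to 152 a library, where F25D1.5 held 274 to 738.

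The gene dhs-23 (chromosome V, 15381219 to 15382271, plus strand) had 46.0, 100 and 132 CPM (lowest, median, highest) on vitamin D, against 4.27, 5.11 and 6.28 CPM on vehicle. Its vehicle libraries were close together, with a coefficient of variation of 13.2%, against 33.1% among the vitamin D libraries. The log2 fold change was 4.18 (SE 0.24), rank 2 of all tested genes. Each vitamin D library was at least 7.32 times the highest vehicle library.

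The gene dhs-8 (chromosome II, 14498026 to 14499755, plus strand) is the one member off chromosome V and had the lowest level of the 6 on vitamin D. On vehicle R05D8.7 had as low a level in CPM. For dhs-8 the values were 1.51, 2.75 and 6.37 CPM (lowest, median, highest) on vitamin D, against 0.222, 0.381 and 1.14 CPM on vehicle. Its log2 fold change was 2.75 (SE 0.50). These values rest on 61 to 241 counts a library on vitamin D and 7 to 39 on vehicle. It also varied most, with coefficients of variation of 60.5% on vitamin D and 67.7% on vehicle. Vehicle library 1, with 1.14 CPM, came within a factor of 1.33 of the lowest vitamin D library.

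Per kilobase of exon, the order of the levels was not the same on the 2 treatments. On vitamin D the means were 151 CPM per kb for F25D1.5, 98.1 for dhs-23, 72.7 for dhs-14, 21.1 for R05D8.9, 14.7 for R05D8.7 and 2.84 for dhs-8. Neighbours in this order had overlapping ranges except dhs-14 over R05D8.9 and R05D8.7 over dhs-8, although F25D1.5 was above dhs-23 in 6 of 6 libraries and dhs-23 above dhs-14 in 5 of 6. On vehicle dhs-14 led with 39.9 CPM per kb, followed by F25D1.5 (13.7), dhs-23 (5.39), R05D8.9 (2.39), R05D8.7 (0.53) and dhs-8 (0.418), and only the last pair overlapped. Among 13147 tested genes with an annotated length, F25D1.5 stood at percentile 93.7 on vitamin D and 50.5 on vehicle, dhs-23 at 90.5 and 32.3, and R05D8.7 at 52.7 and 5.8. The gene dhs-8 stood at percentile 23.5 on vitamin D and 4.2 on vehicle.

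The 5 members on chromosome V have similar coding lengths, which the choice did not use. These are 831 to 843 bp, a range set by the 5 genes themselves with dhs-8 left aside. It holds 1 of the other 31 tested genes of the short-chain dehydrogenase list below and 0.965% of 12533 tested protein-coding genes. The coding length of dhs-8 is 1137 bp, over its 4 transcripts. Chromosome V holds 13 of those 31 other dehydrogenase genes and 24.2% of tested protein-coding genes.

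Differences between libraries of one treatment were not used to choose the genes. In the vitamin D libraries the 5 members on chromosome V varied in a shared order, in 8 of 10 pairs past the threshold. The tests were planned over all 15 pairs of the 6 genes, and setting dhs-8 aside was not part of that plan. Over the 6 vitamin D libraries, Pearson's r of log2 CPM was 0.83 to 0.99 for the 10 pairs among the 5. Of all pairs of the 13460 tested genes 5.26% had an r as high as the lowest of these 10 in the vitamin D libraries. In the vehicle libraries 11.9% did. That cutoff comes from the 10 pairs themselves, and pairs of other genes higher on vitamin D were not compared. Of the 10 pairs, 8 had an exact permutation p under the threshold after adjustment over 30 pairs, the 15 of each treatment. Their adjusted p was 0.0298 to 0.0312 (exact permutation, two-sided). The permutation takes the 6 libraries as exchangeable, but they fell into unlike sets, as given below, so these p-values may be too small. The 8 pairs share genes and libraries and are not 8 separate results. The closest pair was F25D1.5 with dhs-23 (r = 0.99, Spearman's rho = 1.0, exact permutation p = 0.00139, the smallest of the 30). Its r was 0.93 without the 2 libraries farthest from the median of F25D1.5. Neighbours on the chromosome were not the closest pairs: dhs-14 had r = 0.83 with R05D8.7 on its one side and 0.89 with R05D8.9 on the other (exact permutation adjusted p = 0.0648 and 0.0865), and R05D8.7 had 0.93 with R05D8.9 (adjusted p = 0.0298).

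Vitamin D library 1 was the lowest and library 6 the second lowest for each of the 5 genes on chromosome V, and library 4 was the highest for 4 of them and second for dhs-14. The same libraries stood apart over all genes: the chi-square per degree of freedom was 22.3 between libraries 1 and 6, and 67.0 to 115 between either of them and libraries 2, 3 and 4. Library 5 stood farther still from each of the others, at 127 to 163. The part of the split between libraries 1 and 6 and the rest in the shared order was not tested. For dhs-8, libraries 6 and 1 were instead the highest (6.37 and 5.78 CPM, against 1.51 to 3.12 CPM in the other 4). The 5 pairs with dhs-8 had r of -0.91 to -0.66, of which 0 passed after adjustment (exact permutation adjusted p = 0.0682 to 0.268) and 2 had an unadjusted p under 0.05. Spearman's rho had the same signs, at 0.66 to 1.0 for the 10 pairs and -0.89 to -0.49 for those with dhs-8, and 0 of the 30 passed on it (smallest exact permutation adjusted p 0.0833). With 6 libraries the smallest exact permutation p for rho is 0.00278, so that a single pair with a rho of 1.0 cannot pass over 30 pairs. Without libraries 1 and 6, the 2 farthest from its median, R05D8.9 had r = 0.55 with F25D1.5, 0.34 with dhs-14 and 0.73 with dhs-23. Without libraries 1 and 6, dhs-8 had r = -0.12 with dhs-23 and 0.23 with R05D8.9, so that these relations rested on the libraries left out. In the same libraries dhs-8 had -0.48 with F25D1.5 and -0.54 with dhs-14. For R05D8.7 the 2 farthest from its median were libraries 1 and 4. Without these it had r = 0.85 with R05D8.9 and -0.75 with dhs-8. That last value keeps library 6, where dhs-8 was highest, so it cannot be set beside the other values for dhs-8. Over the 5 libraries left without vitamin D library 5, the richest in sperm and oocyte transcript, the 10 pairs had r of 0.89 to 1.0 and the pairs with dhs-8 had r of -0.89 to -0.69.

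**Figure D3:**
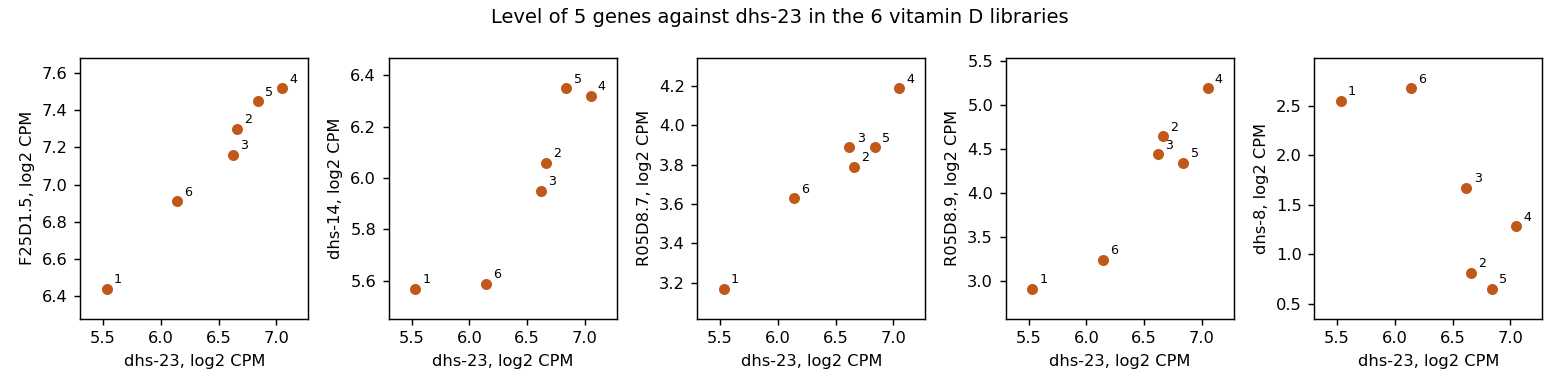
Log2 CPM of 5 of the genes against log2 CPM of dhs-23 in the 6 vitamin D libraries; points are libraries with their replicate numbers. The other 4 genes increase with dhs-23 and dhs-8 is highest in libraries 1 and 6, where dhs-23 is lowest.

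On vehicle the genes did not show such a shared order. Among the 15 pairs 10 had a positive and 5 a negative r, with a median of 0.24 against 0.91 on vitamin D. After adjustment 0 of the 15 passed, and 1 had an unadjusted p under 0.05, R05D8.7 with F25D1.5 (r = 0.87, exact permutation p = 0.0236, adjusted p = 0.0682). Several of the 6 genes had few counts there. More were held by dhs-14 (984 to 1490 counts a library), F25D1.5 (274 to 738) and dhs-23 (137 to 206). Among these 3 genes, r was -0.41 for F25D1.5 with dhs-14, -0.22 for dhs-14 with dhs-23 and 0.62 for F25D1.5 with dhs-23. The part of low counts was not tested, nor was a difference between the treatments in these correlations.

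By profile over all 12 libraries, the genes most like the mean of the 6 standardised members were gst-39, a glutathione S-transferase gene (r = 0.992), stdh-2, of the steroid dehydrogenase family (0.986), cdr-4, named for its response to cadmium (0.984), pgp-1, a P-glycoprotein transporter gene (0.983), and nta-1 (0.983). These were the top 5 of 12012 genes with a mean of at least 1 CPM, and this measure includes the treatment difference by which the members were chosen. With the group means removed, a different set came first: pud-1.1 (r = 0.918), pud-2.2 (F15E11.14, 0.912), pud-1.2 (0.906) and cyp-14A2, a cytochrome P450 gene (0.892). Next was F15E11.1 (0.889), a separate locus that carries the same symbol, pud-2.2, in the annotation. The gene pud-1.1 had 27.7 ± 13.4 CPM on vitamin D and 71.0 ± 35.9 CPM on vehicle (SD, n = 6 each; log2 fold change -1.36, SE 0.41, edgeR adjusted p = 0.0963). F15E11.1 fell, with 22.4 ± 9.98 CPM on vitamin D and 75.8 ± 41.3 CPM on vehicle (SD, n = 6 each). Its log2 fold change was -1.76 (SE 0.42, edgeR adjusted p = 0.039). The log2 fold changes of F15E11.14 and pud-1.2 were -1.38 and -1.51 (SE 0.40 and 0.42, edgeR adjusted p = 0.085 and 0.0713). How many reads could match more than a single pud gene was not analysed here, so their separate counts are uncertain. To this residual mean F25D1.5 and dhs-23 were closest of the members (r = 0.886 and 0.868), and dhs-8 had r = -0.218. Each member is part of that mean, which raises its r, so these values cannot be set beside those of genes outside it.

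Among other short-chain dehydrogenases listed by symbol or name, the share past the threshold was near that of all genes. Of genes with only a sequence name, the list holds just R05D8.7, R05D8.9 and F25D1.5. Any other family member without such a symbol was not counted. Of 46 genes that carry the symbols dhs, stdh, decr or hsd or were listed by name, 37 passed the filter on low counts. Outside the 6 members, 1 of 31 rose, 0 fell and 30 did not pass in edgeR's test, against 1.75% higher and 1.90% lower among all tested genes. DESeq2 gave the same counts, and 2 of the 31 were higher and 6 lower at an unadjusted p under 0.05. The median log2 fold change of the 31 was -0.05, beside 0.00 for all tested genes.

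The riser was stdh-2 (chromosome V, 16224327 to 16225655), which had 8.27 to 16.2 CPM on vitamin D and 0.444 to 0.824 CPM on vehicle. Its means were 11.6 ± 2.91 and 0.644 ± 0.131 CPM (SD, n = 6 each; log2 fold change 4.16, SE 0.21, edgeR adjusted p = 6.19e-07). Its paralog stdh-1 had 28.1 ± 1.30 CPM on vitamin D and 29.1 ± 2.04 CPM on vehicle (log2 fold change -0.05, SE 0.07). Genes of known pathways, picked for their roles after their values were seen, did not pass: dhs-16 had 8.63 ± 2.05 CPM on vitamin D and 6.39 ± 4.58 CPM on vehicle, dhs-28 had 283 ± 30.6 and 338 ± 47.6 CPM, and dhs-3, which encodes a lipid droplet protein, had 175 ± 19.7 and 201 ± 22.2 CPM.

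The count of other dehydrogenases past the threshold depended on vehicle libraries 2 and 3, and without them 6 of the 31 were higher and 3 lower, when 14.8% of all tested genes were higher and 13.8% lower. The higher ones were stdh-2 and, with smaller changes, dhs-16 (log2 fold change 1.30, SE 0.28), dhs-15 (1.28, SE 0.33), dhs-5 (1.07, SE 0.26), dhs-29 (0.85, SE 0.25) and dhs-19 (0.41, SE 0.12). The lower ones were dhs-26 (-0.82, SE 0.27) and the dienoyl-CoA reductase genes decr-1.2 (-0.80, SE 0.13) and decr-1.3 (-0.57, SE 0.09). Their edgeR adjusted p-values were 3.47e-06 for stdh-2 and 0.00169 to 0.0434 for the rest.

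**Figure D4:**
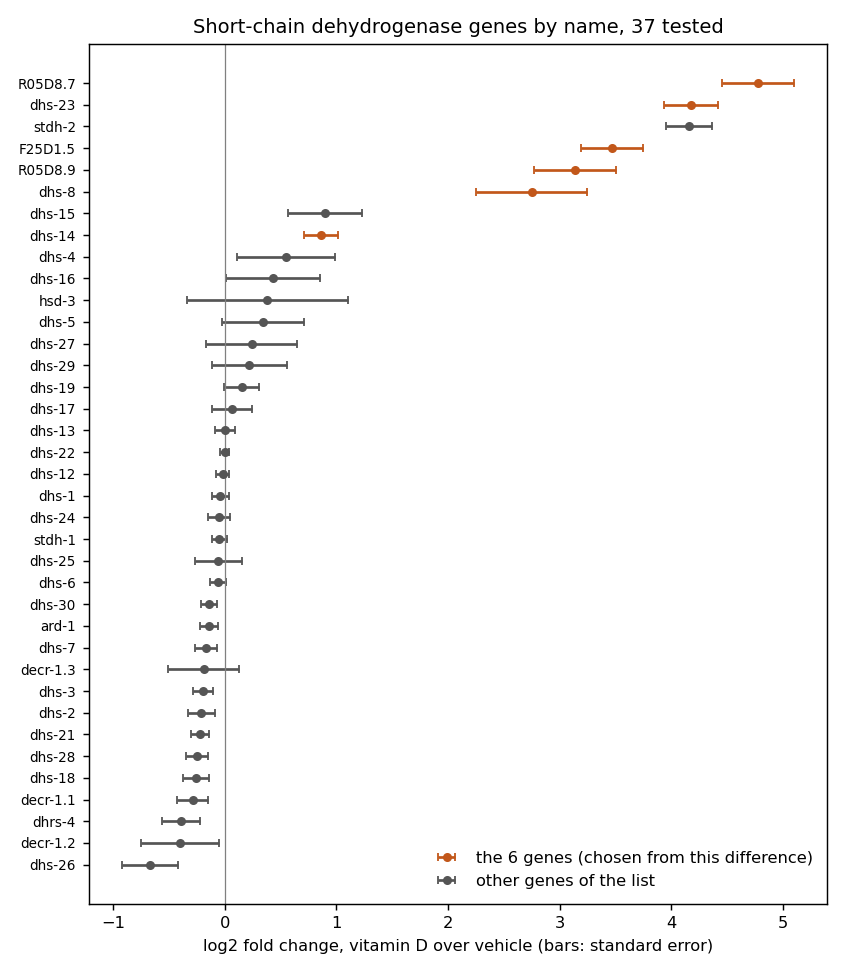
Log2 fold change, vitamin D over vehicle, with its standard error, of the 37 tested genes of the short-chain dehydrogenase list, sorted by value; the 6 genes chosen from this difference are in orange. Of the 6, 5, with stdh-2, stand above 2.7, and dhs-14 lies beside dhs-15 near 0.9.

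Enzymes of other families that act on alcohols and aldehydes were counted in the same way. Of 16 genes with the symbols alh, adh or sodh 10 were tested and 5 were listed at 0. Of the 10, 1 rose, 0 fell and 9 did not pass in edgeR's test, against 1.75% higher and 1.90% lower among all tested genes. DESeq2 gave the same counts, and 2 were higher and 0 lower at an unadjusted p under 0.05. The median log2 fold change was 0.10. The riser was the sorbitol dehydrogenase family gene sodh-2, with 0.955 to 2.87 CPM on vitamin D and 0.187 to 0.702 CPM on vehicle (log2 fold change 1.93, SE 0.38, edgeR adjusted p = 0.0149). Its neighbour and paralog adh-1, with which reads may be shared, had 25.6 ± 5.01 CPM on vitamin D and 19.5 ± 7.31 CPM on vehicle (SD, n = 6 each; edgeR adjusted p = 0.455). Its choice as a neighbour followed sight of its values. Without vehicle libraries 2 and 3, 5 of the 10 were higher, against 14.8% of all tested genes, with sodh-2 at a log2 fold change of 2.33 and adh-1 at 0.76 (edgeR adjusted p = 0.00281 and 0.0132).

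Few of the genes that flank the 6 on their chromosomes passed. Of the 5 protein-coding genes on each side, 39 in all, 20 passed the filter on low counts. In all 1 rose, 0 fell and 19 did not pass in edgeR's test, against 1.75% higher and 1.90% lower among all tested genes. DESeq2 gave the same counts, and 2 were higher and 1 lower at an unadjusted p under 0.05. The riser was ketn-1, a muscle gene on the far side of dhs-15 (2781939 to 2807860), with 531 ± 38.7 CPM on vitamin D and 442 ± 20.3 CPM on vehicle (SD, n = 6 each; log2 fold change 0.26, SE 0.06, edgeR adjusted p = 0.0237). Its call was lost without any one of vehicle libraries 1, 2 and 4 and vitamin D libraries 1 to 4 (edgeR adjusted p = 0.0511 to 0.0674). Without vehicle libraries 2 and 3 together, dhs-15, ketn-1 and best-14 were higher and col-152 and ech-1.1 lower, against 14.8% and 13.8% of all tested genes. Chemoreceptor genes of the srx, srg, srh and srj classes beside the chromosome V cluster had at most 11 counts in any library and did not pass the filter.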

How the data were processed

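RNA-seq libraries from 6 vitamin D and 6 vehicle pools were analysed as groups taken from the sample labels. Per the labels, reads were paired and 50 bases long. The deposited table holds a raw count and a CPM value per gene and library, and each deposited CPM equals the count over the library total within 2.91e-11. Per the submitters' processing notes edgeR 3.12.1 was used. Aligner, counter, strand setting, build and gene models were not given in the sources read, so reads of overlapping or similar genes cannot be assigned further. Coordinates and exon lengths are from the WBcel235 annotation, in which 27187 of 27928 rows matched a single gene. The 2800 rows on chromosome III are at 0 in all libraries, so dehydrogenase genes there are listed at 0. Of the listed dehydrogenase genes on other chromosomes, dhs-20 (chromosome V) and alh-13 (chromosome X) were also at 0 in all libraries.

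Counts were tested with edgeR 4.0.16 in R 4.3.3 (TMM factors, filterByExpr at min.count 10 and min.total.count 15, robust quasi-likelihood test, Benjamini-Hochberg adjustment over 13460 genes, threshold 0.05). The script was tested on simulated data. DESeq2 1.42.0, other scalings, no filter, a replicate block and libraries left out were alternatives. CPM in the text are scaled with TMM factors, and correlations used log2 CPM with a prior count of 2 and all 720 pairings of 6 libraries, beside the share of all pairs of tested genes with as high an r, with scipy 1.17.1. No library pair of a group agreed within sampling noise (chi-square per degree of freedom 7.69 or more). The members, gene lists and tests were chosen with earlier results of these data known. Genes named are the members, list genes past the threshold, and the 5 genes most like the members' mean profile by each measure; others are said to be picked after their values were seen.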

Additional observations from a re-analysis of the deposited data

How the results depend on the processing

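The log2 fold changes of the 6 genes kept their sign under 18 alternatives. They moved by less than the SD of log2 CPM between libraries of a group, 0.28 for dhs-14 to 0.82 for dhs-8. The ranges were 4.61 to 5.27 for R05D8.7, 2.87 to 3.31 for R05D8.9 and 3.37 to 3.86 for F25D1.5. They were 2.49 to 3.15 for dhs-8, 0.78 to 0.94 for dhs-14 and 4.05 to 4.32 for dhs-23. Without vehicle libraries 2 and 3, R05D8.7 and F25D1.5 moved by more than their SE over all 12 libraries (0.32 and 0.28). The count of tested genes past the threshold, 492, was 1167 with DESeq2, 136 with the replicate block, 3924 without vehicle libraries 2 and 3, and 260 to 625 with each library left out. It moved by over 1.5 times without vehicle library 1 (260) or 4 (302), or vitamin D library 1 (264), 2 (299), 3 (324), 4 (291) or 6 (297). With no filter 370 genes passed.

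Without vehicle libraries 2 and 3, the other listed short-chain dehydrogenases had 6 higher and 3 lower, the alcohol and aldehyde dehydrogenases 5 higher, and the flanking genes 3 higher and 2 lower. In that fit 14.8% of all tested genes were higher and 13.8% lower. With the replicate block, 0 alcohol and aldehyde dehydrogenases and 0 flanking genes were higher. With each library left out the first had 1 to 2 higher and the second 0 to 1. With 10 flanking genes on each side 3 of 44 tested were higher and 0 lower, against 1.75% and 1.90% of all tested genes. Beside ketn-1 these were F54E2.1, also near the R05D8.7 cluster, and C29F3.7, near dhs-23. Their log2 fold changes were 0.37 and 0.28 (SE 0.07 and 0.06, edgeR adjusted p = 0.0145 and 0.028). With the replicate block neither passed (edgeR adjusted p = 0.088 and 0.113). For these counts the cause was not tested. By Spearman's rho 0 pairs of the 6 genes passed on vitamin D, where the smallest exact permutation p that 6 libraries allow is 0.00278 and adjusts to 0.0833 for a single pair.

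Same-numbered libraries did not as a rule deviate together (correlations from -0.42 to 0.44), and the numbers were taken to name samples only. Of 6 vitamin D libraries 2 were closest to their own number, 4 and 5 (0.30 and 0.44). With 6 correlations it cannot be decided whether some numbers mark pairs. Counts under 30 a library on vehicle limit the precision for R05D8.7. Protein relatives, promoter motifs and read uniqueness were not analysed here.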

Other observations

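Below the filter on low counts, C01G12.5, which the RefSeq table names cror-1 where R05D8.9 is cror-2, went the other way from R05D8.9. It had 0 to 5 counts a library on vitamin D, against 9 to 19 on vehicle, without overlap. The groups lay apart in that direction for 1.92% of genes that passed the filter. C01G12.5 was picked after its values were seen and was not tested.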
